A study of Mus musculus with 24 samples.

Results

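The protocadherins are the largest family of cadherin-type cell adhesion receptors. The genes described here were every gene on the array whose name began with Pcdh and that had a probe that the scanner software marked as well above background throughout 1 group or more (3 arrays of 3), each gene being read through its passing probe of highest mean signal. Of 48 protocadherin genes on the array, 34 passed, out of 23864 genes named by the 36409 probes that passed the same filter. The 34 members were 4 of 7 genes of the alpha cluster (Pcdha8, Pcdha9, Pcdha12 and Pcdhac2), 16 of 22 genes of the beta cluster, 2 of 7 genes of the gamma cluster (Pcdhga1 and Pcdhga9) and the 12 non-clustered genes on the array (Pcdh1, Pcdh7, Pcdh8, Pcdh9, Pcdh10, Pcdh11x, Pcdh12, Pcdh15, Pcdh17, Pcdh18, Pcdh19 and Pcdh20). The 14 genes without a passing probe were Pcdha4, Pcdha11, Pcdhac1, Pcdhb1, Pcdhb2, Pcdhb5, Pcdhb8, Pcdhb11, Pcdhb19, Pcdhga5, Pcdhga10, Pcdhga12, Pcdhgb1 and Pcdhgc5.

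RNA came from nerve roots at the L4–L6 segments of untreated C57BL/6 mice of both sexes, with no transgene in any group. Efferent nerve fibres (EN, the ventral root, which carries motor axons) and afferent nerve fibres (AN, the dorsal root, which carries sensory axons) were collected on the day of birth (P0) and at 1 week (1W), 3 weeks (3W) and 5 weeks (5W), which gave 8 groups of 3 arrays each. Each root holds axons, Schwann cells, fibroblasts, vessels and macrophages together. The study describes independent experiments, but which mice gave which array is not stated, so every p-value here measures the spread between these samples, which may be partly technical.

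Protocadherins are single-pass membrane proteins with extracellular cadherin repeats. In the alpha, beta and gamma clusters on chromosome 18, which lie in tandem, each variable exon has its own promoter. A neuron switches on a small, partly random choice of these promoters, and the resulting mixture of proteins, which bind only matching partners on other cells, lets the branches of 1 neuron recognise each other as self. Transcripts of the alpha cluster share constant exons, as do those of the gamma cluster, whereas each beta gene is a single exon. The non-clustered members act mostly in axon growth, sorting and synapse formation. Several of them (Pcdh10, Pcdh17, Pcdh18 and Pcdh19) carry a cytoplasmic motif that recruits the WAVE complex, which drives branched actin assembly. Pcdh12 is an adhesion receptor of endothelial cells, and Pcdh15 forms the tip link of inner ear hair cells together with Cdh23.

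All levels below are log2 signal as deposited, after quantile normalisation by the authors. All changes are differences between group means of 3 arrays on the log2 scale (a log2 change of 1 is a doubling), with the standard error (SE) and the Benjamini-Hochberg adjusted p of a limma fit across all 36409 probes. A gene was called where the adjusted p was below 0.05 and the fold change was above 2. Levels were compared only within a gene, since array probes differ in brightness.

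The 24 arrays lay on 4 slides. All the 3W arrays and the last 5W array of each root (replicate 3) shared 1 slide, which held no P0 array, so that a change between P0 and 3W runs partly along with the slide. A fit with the slide as a block can set that slide against the others only through the third 5W array of each root. Its 3W estimates therefore rest on those arrays. Arrays within the 5W groups correlated at 0.957 to 0.976 in AN and at 0.961 to 0.981 in EN. The third 3W AN array correlated with the other arrays of its group at 0.959 to 0.963, against 0.991 between those 2. The sensory neuron markers (Avil, Calca, Tac1, Prph, Isl1 and Pou4f1) averaged 14.42 on that array, against 10.58 and 10 on the other 2 arrays of the group. At birth the ranges of their mean overlapped between the roots (12.11 to 12.66 in EN and 12.03 to 13.47 in AN). In EN it then stood at 8.08 to 9.85 at 1W, 8.51 to 8.88 at 3W and 8.50 to 8.92 at 5W, and in AN at 12.91 to 13.13, 10 to 14.42 and 8.66 to 11.70. No marker of motor neurons (Chat, Isl2, Slc18a3 and Slc5a7 were tested) was called higher in EN than in AN, Isl2 was called higher in AN at 1W, and Mnx1 had no passing probe. Fewer cells of a type and less RNA per cell cannot be told apart in such bulk samples.

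Across the whole family, protocadherins were higher in AN than in EN wherever a difference between the roots was called, and 8 or more of the 34 fell from birth to 3W and 5W in either root while 2 to 5 rose. The 3W counts run partly along with the slide. Between the roots, 1 member was called higher in AN at P0, where 0.0714% of all tested probes were called higher and 0.255% lower. The count was 5 at 1W (2.41% of all probes higher, 0.371% lower), 5 at 3W (2.23% and 0.882%) and 6 at 5W (2.49% and 0.821%). No member was called lower in AN at any stage by limma, although at an unadjusted p below 0.05 the number lower in AN was 0 at P0 and 3, 2 and 3 at the later stages. All the members called between the roots were higher in AN in each of the 3 pairs of same-numbered arrays. Counting called and uncalled members together, 10 were higher and 4 lower in AN in all pairs at P0, 10 and 17 at 1W, 8 and 13 at 3W and 10 and 6 at 5W. The same count was not made over all tested probes, so these numbers have no background share beside them.

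In EN, 2 members were called higher and 8 lower at 1W relative to P0 (all probes: 6.25% higher, 5.67% lower), 5 higher and 9 lower at 3W (16.1% and 14.4%), and 3 higher and 9 lower at 5W (15.4% and 14.5%). In AN, no member was called higher and 2 were called lower at 1W (4.96% and 3.62%), where 13 were higher at an unadjusted p below 0.05. At 3W 2 members were called higher and 8 lower in AN (15% and 12.8%), and at 5W again 2 higher and 8 lower (15.2% and 12.7%). The share of members that fell therefore stood above the background share in EN from 1W and in AN at 3W and 5W, and the share that rose was near or below it. These counts are without the slide as a block. With it, the 3W falls of Pcdha12, Pcdhac2 and Pcdhb12 in EN and of Pcdha8 and Pcdhb12 in AN were not called. Nor were the 3W rises of Pcdhb13, Pcdhb14, Pcdhb15 and Pcdhb18 in EN and of Pcdhb15 and Pcdh15 in AN. Pcdha9 in EN and Pcdh7 and Pcdhb17 in AN were called at 3W only with the block. The change of the root difference since P0 was called for 0 members at 1W (all probes: 0.022% higher, 0.0412% lower; 4 members were higher and 2 lower at an unadjusted p below 0.05 in the same fit), 1 at 3W (0.286% and 0.239%) and 1 at 5W (0.615% and 0.316%), higher in both. Because 8 members (Pcdha12, Pcdhb9, Pcdhb13, Pcdhb15, Pcdhga1, Pcdh8, Pcdh15 and Pcdh20) passed the filter without being above background on every array, and could pass through the groups in which they were bright, these counts are a description of the members. The EN and AN comparisons at each stage share their P0 arrays with the comparisons at other stages.

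**Figure D1:**
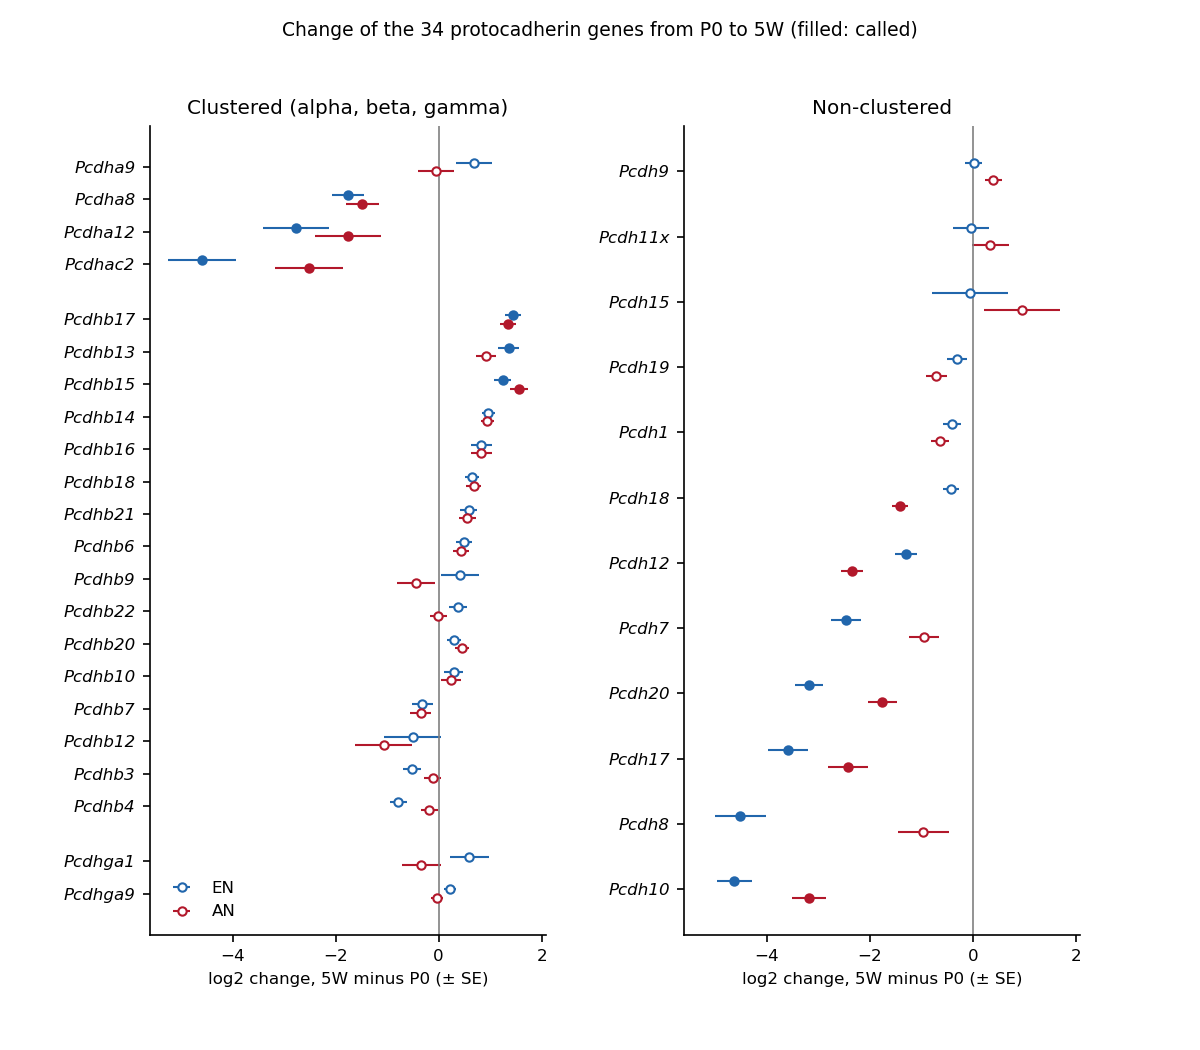
Log2 change from P0 to 5W of each of the 34 protocadherin genes in efferent (EN) and afferent (AN) fibres, with the SE of the limma fit as error bars (n = 3 arrays per group), by gene class. Filled points passed the call rule. Pcdhac2, Pcdh8 and Pcdh10 lie furthest to the left in EN at −4.59, −4.52 and −4.63, and the beta genes lie near or to the right of 0.

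Of the 4 alpha members, 3 fell in both roots by 5W. In EN, Pcdha8, Pcdha12 and Pcdhac2 fell at 1W, 3W and 5W, and the median change of the 4 alpha members was −2.01, −2.03 and −2.27. In AN, no alpha member was called at 1W by limma (median −0.23, and 0 members at an unadjusted p below 0.05), 1 fell at 3W and the same 3 as in EN fell at 5W (median −1.62). The change of the root difference from P0 was called for 0 of the 4 by limma at any stage, although 3 were higher at an unadjusted p below 0.05 at 1W and 1 each at 3W and 5W. The exception to the fall was Pcdha9, which was not called in any comparison and which lay between 5.63 and 7.72 on all 24 arrays. With the slide as a block it was called higher in EN at 3W (1.15, adjusted p 0.0399).

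Pcdhac2, a C-type isoform that is not subject to the random promoter choice, had the highest mean signal of the alpha members. In EN its level was 11.25, 11.43 and 11.52 on the 3 arrays at P0, then 8.20, 8.20 and 9.36 at 1W, next 7.95, 7.75 and 7.79 at 3W and finally 7.44, 7.40 and 5.58 at 5W. In AN the level was 11.83, 12.06 and 10.97 at P0, then 11.51, 11.50 and 11.34 at 1W, next 9.33, 8.78 and 12.11 at 3W and finally 9.41, 9.84 and 8.05 at 5W. The EN arrays of every later stage thus lay below all P0 EN arrays, while the AN arrays at 1W still overlapped those at P0 and the third 3W AN array stood at the P0 level. The change of Pcdhac2 in EN was −2.81 (SE 0.664, adjusted p 0.00421) at 1W, −3.57 (adjusted p 0.000196) at 3W and −4.59 (adjusted p 1.21e-05) at 5W, all called. In AN the change was −0.17 (adjusted p 0.898) at 1W, −1.54 (adjusted p 0.0594) at 3W and −2.52 (adjusted p 0.00387) at 5W, and only the last was called. With the slide as a block the 3W change in EN was −1.78 and not called (adjusted p 0.127), and that in AN was 0.25 (adjusted p 0.857). That block rests on the third 5W arrays, which at 5.58 in EN and 8.05 in AN were the lowest of their groups.

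The difference between the roots was largest at 1W for Pcdhac2. AN was higher than EN by 2.87 (SE 0.664, adjusted p 0.0176) at 1W, by 2.24 (adjusted p 0.0532, not called) at 3W and by 2.29 (adjusted p 0.0439) at 5W, against 0.22 (adjusted p 1) at P0. With same-numbered arrays of a stage as a block, the 3W difference was called (adjusted p 0.0181). The 1W call was lost without either of the first and second EN arrays or any single AN array (2.67 to 2.92, adjusted p 0.0587 to 0.095). The 5W call was lost without the first or second AN array or the second or the third EN array (1.68 to 2.59, adjusted p 0.0539 to 0.194). The change of the root difference from P0 to 1W was 2.64 (SE 0.939, adjusted p 0.409) and did not pass the test. A second Pcdhac2 probe was higher in AN by 3.08 (adjusted p 0.00712) at 1W and by 2.25 (adjusted p 0.0344) at 3W, but was not called at 5W (1.64, adjusted p 0.123). On the mm9 coordinates of the array design, both Pcdhac2 probes (at chr18:37344758-37344817 and chr18:37347235-37347294) lie beyond the probes of all other alpha genes, on the side of the constant exons, so they may read all transcripts of the alpha cluster and not Pcdhac2 alone.

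The other alpha members that moved were variable-exon genes. Pcdha8 stood between 7.97 and 8.17 in EN at P0 and between 6.39 and 6.73 at 1W, while AN at 1W stood between 7.91 and 8.10. Its change in EN was −1.504 (adjusted p 0.00178) at 1W, −1.47 (adjusted p 0.000731) at 3W and −1.76 (adjusted p 0.000122) at 5W. In AN it was −1.02 (adjusted p 0.0112, with overlapping arrays) at 3W and −1.48 (adjusted p 0.000679) at 5W. It was higher in AN than in EN by 1.45 (SE 0.316, adjusted p 0.012) at 1W. Pcdha12 was well above background on 10 of 24 arrays. In EN it was above background on 0 of 3 arrays at 1W, 3W and 5W, so that its fall from P0 is a bound, at least 1.38-fold at 1W and 3W and at least 1.23-fold at 5W. Its AN level at 1W (5.11, 5.76 and 5.56) was at least 1.52-fold above that of EN, with measured values of 2.51, 2.502 and 3.466 (adjusted p 0.0222). The 1W calls of Pcdha8 and Pcdha12 between the roots were both lost without the first EN array, and both without the second.

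The sensory neuron markers moved along with the alpha cluster in several groups. In EN, 5 of the 6 markers fell at 1W, 3W and 5W, while Pou4f1 rose in EN at 3W (1.08) and was not called at 1W or 5W. Isl1 was above background on 0 of 3 EN arrays at 3W and 5W. In AN, 0 markers were called at 1W, 1 rose (Pou4f1) and 1 fell (Isl1) at 3W, and 1 rose (Pou4f1) and 3 fell (Avil, Prph and Isl1) at 5W. AN exceeded EN for 0 of 6 markers at P0 but for 5 at 1W, with 2 left at 3W and 1 left at 5W. The third 3W AN array, on which Pcdhac2, Pcdha8 and Pcdha12 read 12.11, 8.41 and 6.68 against 8.78 to 9.33, 6.70 to 7.01 and 3.25 to 4.11 on the other 2, was also the array with the highest mean of these markers. The part of sensory neuron RNA in the alpha cluster changes was not tested.

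**Figure D2:**
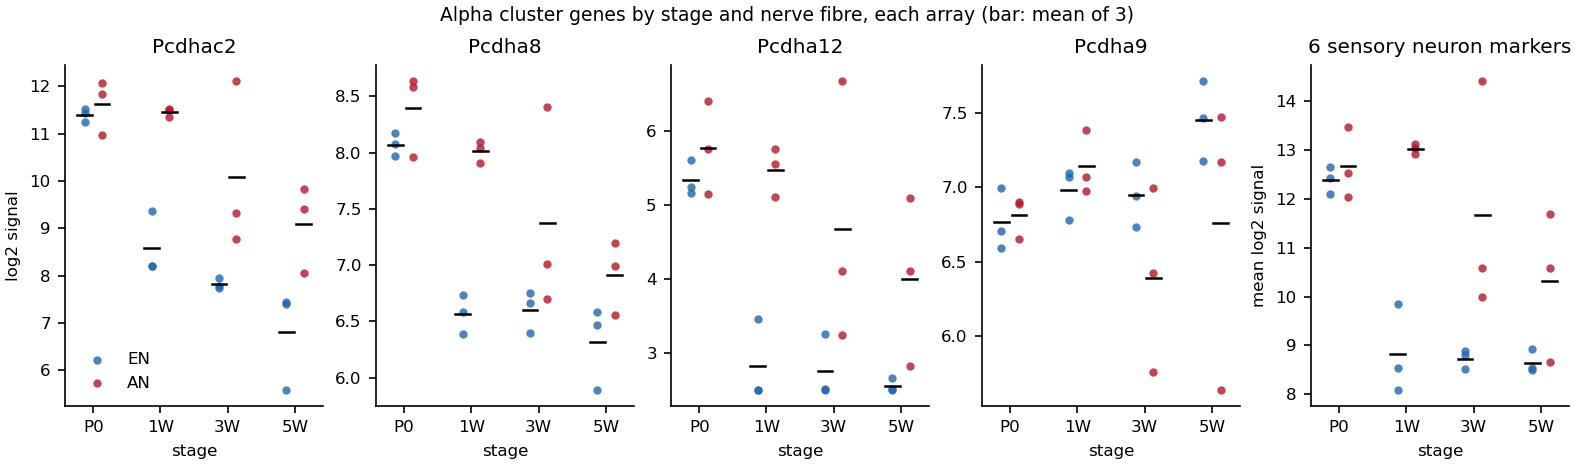
Log2 signal of the 4 alpha members on each array by stage, with the mean of the 6 sensory neuron markers in the last panel, 1 point per array (n = 3 per group) and a bar at each group mean for EN and AN. Pcdhac2, Pcdha8 and Pcdha12 drop in EN from P0 to 1W while AN stays near its P0 level, and Pcdha9 shows no such drop. The sensory neuron markers drop in EN at 1W as well.

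Most beta members had positive changes after birth in both roots. In EN, 15 of 16 beta members had a positive change at 1W (median 0.71), and 12 of 16 did at 3W (median 0.69) and at 5W (median 0.45). In AN the numbers were 14 at 1W (median 0.47), 12 at 3W (median 0.59) and 10 at 5W (median 0.45). Most of these changes were under 2-fold: without the fold limit, 11 beta members passed an adjusted p below 0.05 as higher at 1W in EN, 11 at 3W and 8 at 5W, and 8, 9 and 9 did in AN. As lower, 0, 1 and 2 passed in EN and 0, 1 and 0 in AN. The share of all probes that passed without the fold limit is not given here, so these counts describe the beta members only. Over all tested probes the median change was 0.064, 0.044 and 0.044 in EN and 0.022, 0.015 and 0.026 in AN at 1W, 3W and 5W. With the fold limit, 1 beta member rose at 1W in EN, 5 at 3W (Pcdhb13, Pcdhb14, Pcdhb15, Pcdhb17 and Pcdhb18) and 3 at 5W (Pcdhb13, Pcdhb15 and Pcdhb17), and 0, 1 (Pcdhb15) and 2 (Pcdhb15 and Pcdhb17) rose in AN. Of all tested probes, 6.25%, 16.1% and 15.4% were called higher in EN at 1W, 3W and 5W. In AN the shares were 4.96%, 15% and 15.2%. Pcdhb13, Pcdhb14 and Pcdhb18 are named here after their values were seen. Between 1W and P0 in AN, where limma called 0 beta members, 11 were higher at an unadjusted p below 0.05.

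Markers of other cells moved along with the protocadherins. All 4 markers of dividing cells (Mki67, Top2a, Cdk1 and Birc5) fell at 3W and 5W in both roots, and their array means went from 12.59 to 12.74 in EN and 13.17 to 13.55 in AN at P0 to 8.57 to 9.07 and 8.83 to 9.15 at 5W. Of the 4 macrophage markers (Cd68, Csf1r, Aif1 and Adgre1), 3, 2 and 4 rose in EN and 2, 2 and 2 in AN at 1W, 3W and 5W, with array means of 10.27 to 10.65 over both roots at P0 and 11.39 to 12.26 at 5W. Of the 4 Schwann lineage markers, 1 rose and 1 fell in EN and 3 rose in AN at 5W. The part of these cells in the protocadherin changes was not tested.

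Pcdhb17 showed the largest beta rise from P0 to 5W in EN. In EN it read 8.63, 8.06 and 8.64 at P0, then 9.85, 9.65 and 9.48 at 1W, next 9.88, 9.82 and 9.85 at 3W and finally 10.16, 9.77 and 9.71 at 5W. AN read 8.45, 8.38 and 8.52 at P0, then 9.35, 9.31 and 9.19 at 1W, next 9.50, 9.28 and 9.31 at 3W and finally 9.98, 9.61 and 9.77 at 5W. All later arrays of a root lay above its P0 arrays, and the step came within the first week. The rise in EN was 1.22 (SE 0.156, adjusted p 2.07e-05) at 1W, 1.41 at 3W and 1.44 (adjusted p 3.67e-07) at 5W, and in AN 0.83 (adjusted p 0.000817, under 2-fold) at 1W, 0.91 at 3W and 1.34 (adjusted p 9.23e-07) at 5W.

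Pcdhb15 had the largest beta rise in AN. Its AN level was 5.66, 5.12 and 5.41 at P0, then 5.85 to 6.13 at 1W, next 6.62 to 6.94 at 3W and finally 6.61 to 7.23 at 5W. It rose in AN by 1.36 (SE 0.174, adjusted p 3.74e-06) at 3W and by 1.56 (adjusted p 5.66e-07) at 5W, and in EN by 1.36 and 1.24. With the slide as a block, the 3W rises were 0.999 in AN and 0.997 in EN, just under the fold limit (adjusted p 0.00036 and 0.000359). With a normexp background correction of the scanner signals the rises were 0.63 to 0.77 and below the fold limit, with adjusted p of 5.87e-05 and 0.000117 at 3W and of 1.17e-05 and 5.94e-05 at 5W. Pcdhb21, the beta member of highest mean signal, read 9.45 to 9.72 at P0 over both roots and 9.90 to 10.52 at 1W. Its changes were 0.81 (adjusted p 0.00162), 0.92 and 0.58 in EN and 0.55, 0.69 and 0.56 in AN at 1W, 3W and 5W, all with an adjusted p below 0.05 and none above 2-fold.

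No beta gene was called between the roots. By limma, 0 of 16 beta members were called between AN and EN at any of the 4 stages (P0, 1W, 3W, 5W), and the counts at an unadjusted p below 0.05 were 0, 3, 1 and 3 in that order. At 1W, however, 15 of the 16 had a negative difference (median −0.22, against −0.06 over all probes tested), and 13 were lower in AN in all 3 pairs of same-numbered arrays and 0 higher. At 3W these numbers were 7 and 0, at 5W 3 and 2, and at P0 2 and 1. No share of all tested probes stands beside these pair counts, so they describe the beta members only. The differences ranged from −0.25 to 0.36 at P0 and −0.57 to 0.10 at 1W, and later from −0.75 to 0.11 at 3W and −0.82 to 0.51 at 5W. No beta member was called for a change of the root difference, where 0 at 1W, 1 at 3W and 1 at 5W had an unadjusted p below 0.05. Near-identical beta genes can share hybridisation, so a reading may mix neighbours.

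**Figure D3:**
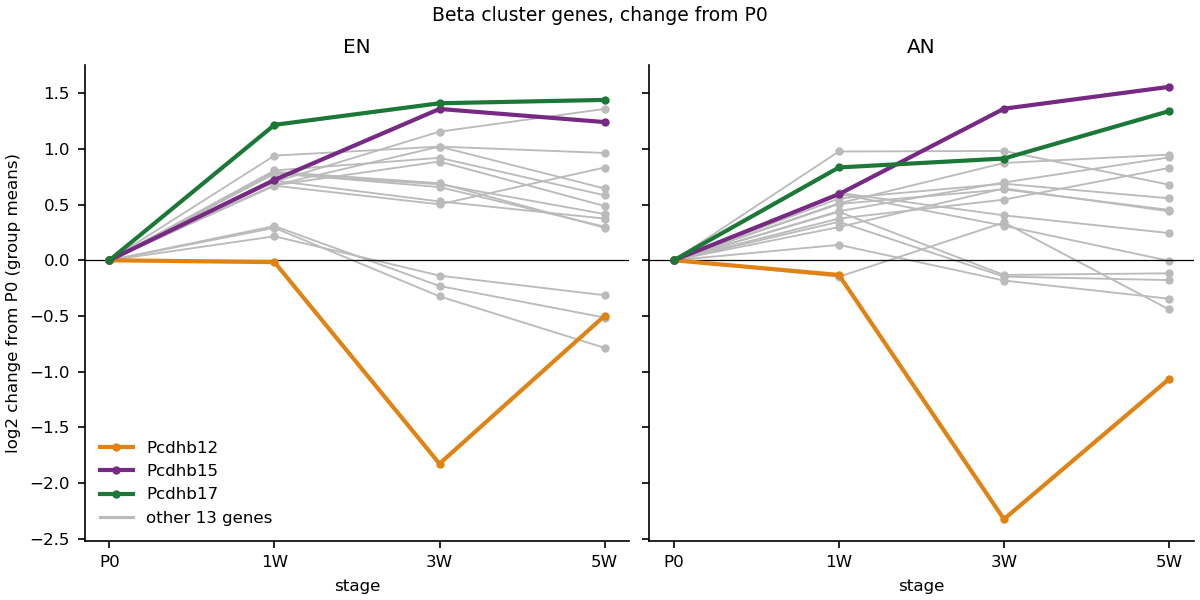
Log2 change from P0 of the group mean (n = 3 arrays) of the 16 beta members at 1W, 3W and 5W, 1 line per gene, in EN (left) and AN (right), with 3 genes in colour. Most lines lie above 0, Pcdhb17 ends highest in EN and Pcdhb15 in AN, and Pcdhb12 alone dips to −1.83 in EN and −2.32 in AN at 3W.

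No change was called for the 2 gamma genes tested. The Pcdhga9 probe read 14.41 to 14.56 in EN and 14.50 to 14.73 in AN at P0, and 14.67 to 14.74 and 14.55 to 14.68 at 5W. By limma neither gamma member was called in any of the 13 comparisons, and 0 or 1 of the 2 had an unadjusted p below 0.05 in each. The largest Pcdhga9 changes were at 3W, where AN stood 0.40 below EN (SE 0.117, adjusted p 0.0501) and 0.39 below AN at P0 (adjusted p 0.00974). The probe, at chr18:38001378-38001437 on mm9, and a second Pcdhga9 probe lie beyond the probes of all other gamma genes, on the side of the constant exons, and may read the gamma cluster as a whole. The second probe showed differences of −0.88 to 0.75 with no call, and Pcdhga1, above background on 19 of 24 arrays, read 4.39 to 6.67 in all. The Pcdhga1 changes from P0 were 0.76 (SE 0.376, adjusted p 0.146), 0.75 and 0.60 in EN and 0.12, 0.39 and −0.34 in AN at 1W, 3W and 5W, and the difference of AN from EN at 5W was −0.84 (adjusted p 0.207).

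Among the non-clustered genes, differences between the roots were called mostly at 3W and 5W. Pcdh7, Pcdh8, Pcdh10, Pcdh17 and Pcdh20 fell in EN at 3W and 5W, and all 5 were higher in AN than in EN at both stages. Of these 5, the change of the root difference since P0 was called only for Pcdh8. With same-numbered arrays of a stage as a block it was called for Pcdh7 at 3W and 5W and for Pcdh20 at 5W as well. At both stages, 5 of the 12 non-clustered members were called higher in AN and 0 lower, and by limma only Pcdh20 was called at P0 and only Pcdh8 and Pcdh10 at 1W.

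The 250 bases before the annotated start of these 5 genes are shown so that a reader can see what their promoters hold. The 5 were picked by their values, as called lower in EN and higher in AN than in EN at 3W and 5W. Their courses in AN differed: at 5W Pcdh10, Pcdh17 and Pcdh20 were called lower than at P0, and Pcdh7 and Pcdh8 were not. Sequences are from RefSeq on GRCm38.p6, in the direction of transcription, and capitals mark the CCAAT box on either strand (CCAAT or ATTGG). They were Pcdh7 at chr5:57717831-57718080 on the plus strand, Pcdh8 at chr14:79771313-79771562 on the minus strand, Pcdh10 at chr3:45378148-45378397 on the plus strand, Pcdh17 at chr14:84443313-84443562 on the plus strand and Pcdh20 at chr14:88471397-88471646 on the minus strand.
Pcdh7: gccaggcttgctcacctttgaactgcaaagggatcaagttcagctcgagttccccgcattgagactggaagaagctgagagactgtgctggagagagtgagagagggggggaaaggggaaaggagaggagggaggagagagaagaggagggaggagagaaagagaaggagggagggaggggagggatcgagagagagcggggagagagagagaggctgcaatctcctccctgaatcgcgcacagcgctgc
Pcdh8: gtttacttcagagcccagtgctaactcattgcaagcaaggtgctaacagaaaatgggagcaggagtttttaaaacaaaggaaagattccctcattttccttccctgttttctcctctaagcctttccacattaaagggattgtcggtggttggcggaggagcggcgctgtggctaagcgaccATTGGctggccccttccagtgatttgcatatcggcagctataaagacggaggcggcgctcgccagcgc
Pcdh10: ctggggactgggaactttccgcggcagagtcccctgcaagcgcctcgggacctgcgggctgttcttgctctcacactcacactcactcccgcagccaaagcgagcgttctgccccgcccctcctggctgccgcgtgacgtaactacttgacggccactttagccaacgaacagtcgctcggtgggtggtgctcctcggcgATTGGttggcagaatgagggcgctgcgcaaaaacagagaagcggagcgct
Pcdh17: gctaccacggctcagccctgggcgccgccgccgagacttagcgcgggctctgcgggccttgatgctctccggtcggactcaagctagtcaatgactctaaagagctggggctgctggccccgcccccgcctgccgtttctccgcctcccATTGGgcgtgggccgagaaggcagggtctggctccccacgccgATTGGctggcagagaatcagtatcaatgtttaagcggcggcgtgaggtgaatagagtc
Pcdh20: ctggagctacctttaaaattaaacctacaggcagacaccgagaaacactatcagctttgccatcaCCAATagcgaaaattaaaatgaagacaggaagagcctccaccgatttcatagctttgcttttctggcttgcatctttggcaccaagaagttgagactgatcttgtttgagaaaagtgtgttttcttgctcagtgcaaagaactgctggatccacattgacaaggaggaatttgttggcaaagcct
A CCAAT box stood 68 bases before the start in Pcdh8, 50 in Pcdh10, 101 and 58 in Pcdh17 and 185 in Pcdh20, and none was in the Pcdh7 window. Over the 9 members with a window in the table (Pcdh7, Pcdh8, Pcdh9, Pcdh10, Pcdh15, Pcdh17, Pcdh18, Pcdh19 and Pcdh20), 8 held the motif, against 33.8% of all 32851 windows of 250 bases, and 2 held TATAAA on either strand (Pcdh8 and Pcdh15), against 12.4%. The motif was also present in Pcdh9, Pcdh15, Pcdh18 and Pcdh19, which were not called between the roots at 3W or 5W. Each member was counted once, whereas the share over all windows counts every window of a gene. No test was made of these matches.

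Pcdh8 (arcadlin), an activity-induced protocadherin that makes N-cadherin leave the cell surface through the kinase Taok2, was the only member whose root difference was called as changing with age without that block. In EN it read 7.67, 7.74 and 7.12 at P0, then 4.86, 5.00 and 5.65 at 1W, next 3.21, 2.60 and 3.03 at 3W and finally 2.93, 2.75 and 3.30 at 5W. In AN it read 8.25, 7.70 and 7.43 at P0, then 7.19, 6.61 and 7.42 at 1W, next 6.79, 6.71 and 7.94 at 3W and finally 6.72, 8.31 and 5.46 at 5W. EN was above background on 0 of 3 arrays at 3W and 5W, whereas AN overlapped its own P0 range at both stages. EN at 3W and 5W was therefore at least 6.20-fold and at least 5.53-fold below P0 (adjusted p 5.46e-07 and 4.68e-07), and AN at least 4.82-fold and at least 3.46-fold above EN (adjusted p 5.74e-05 and 0.000108).

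Relative to P0, the root difference of Pcdh8 grew by a measured 3.91 (SE 0.704, adjusted p 0.0137) at 3W and 3.56 (SE 0.704, adjusted p 0.017) at 5W. The pairwise AN minus EN differences were 0.58, −0.04 and 0.31 at P0 and 3.58, 4.10 and 4.91 at 3W. At 5W they were 3.79, 5.57 and 2.16, on 3 different slides. The 5W change was not called without the third P0 AN array (3.37, adjusted p 0.0527). With the normexp correction the changes were 1.25 (adjusted p 0.278) and 1.23 (adjusted p 0.217). At 1W Pcdh8 was higher in AN by 1.90 (SE 0.498, adjusted p 0.0364), a call that was lost without any single AN array or the first or second EN array (1.72 to 2.13, adjusted p 0.0524 to 0.165). A second Pcdh8 probe went the same way, with a change of the root difference of 2.72 (adjusted p 0.047) at 3W and 2.30 (adjusted p 0.0785) at 5W.

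Pcdh10 (OL-protocadherin), which steers growing axons of the forebrain, fell the most in EN from P0 to 5W among members above background on every array. Its change was −4.63, close to −4.59 for Pcdhac2, which fell more at 1W. In EN Pcdh10 read 10.18, 10.26 and 10.62 at P0, then 8.33, 8.75 and 8.84 at 1W, next 6.34, 6.50 and 6.33 at 3W and finally 5.02, 5.89 and 6.27 at 5W. AN read 11.19, 11.60 and 11.62 at P0, then 10.21, 10.25 and 10.52 at 1W, next 8.19, 8.34 and 9.62 at 3W and finally 8.31, 8.73 and 7.83 at 5W. No later array of a root reached the P0 arrays of that root, and at each stage every AN array was above every EN array.

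The change of Pcdh10 in EN was −1.72, −3.96 and −4.63 (SE 0.332, adjusted p 0.000963, 2.11e-08 and 1.87e-09) at 1W, 3W and 5W. In AN it was −1.15, −2.76 and −3.18 (adjusted p 0.0183, 1.92e-06 and 2.44e-07). The 1W fall in AN was not called without the first or second 1W array or the second or the third P0 array (−1.11 to −1.07, adjusted p 0.0546 to 0.0708). AN exceeded EN by 1.69 (adjusted p 0.00712) at 1W, 2.33 (adjusted p 0.000336) at 3W and 2.57 (adjusted p 0.000107) at 5W. The 1W difference was 1.53 (adjusted p 0.0519) without the first EN array. Of 3 further Pcdh10 probes, 2 fell in both roots at 3W and 5W and were higher in AN at 1W, 3W and 5W. The change of the root difference was called for 1 of them at 3W (2.06, adjusted p 0.001) and for both at 5W (1.74, adjusted p 0.00313, and 1.98, adjusted p 0.0298). The third probe was above background on 5 arrays, all of AN at P0 or 1W, passed the filter through AN at P0 alone and is not compared.

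Pcdh20 was already higher in AN at birth. In EN it read 8.01, 7.81 and 7.53 at P0, then 5.52, 5.89 and 6.08 at 1W, next 5.17, 5.06 and 4.45 at 3W and finally 4.28, 4.57 and 4.94 at 5W. In AN it read 9.08, 9.11 and 8.84 at P0, then 6.34, 6.44 and 7.01 at 1W, next 6.75, 7.34 and 7.21 at 3W and finally 6.57, 7.60 and 7.58 at 5W. Both roots dropped in the first week, after which EN went on down and AN did not.

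At P0 the Pcdh20 difference was 1.22 (SE 0.278, adjusted p 0.0485), a call that was lost when any 1 of the 6 arrays was left out (1.098 to 1.339, adjusted p 0.103 to 0.214). It was 2.21 (adjusted p 0.000101) at 3W, and at 5W, when EN was above background on 0 of 3 arrays, AN was at least 4.51-fold higher (adjusted p 1.3e-05). The change from P0 in EN was −1.96 at 1W and −2.89 at 3W, and at 5W EN was at least 6.54-fold lower (adjusted p 6.08e-05, 1.15e-07 and 2.45e-08). In AN the change was −2.41 (adjusted p 6.71e-06) at 1W, −1.91 (adjusted p 1.67e-05) at 3W and −1.76 (adjusted p 3.5e-05) at 5W. With same-numbered arrays as a block, the growth of the root difference from P0 to 5W was called for Pcdh20 (1.43, SE 0.282, adjusted p 0.0191), which it was not without the block (adjusted p 0.0985).

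Pcdh17, which helps amygdala axons to extend together, read 10.75, 10.95 and 11.02 in EN at P0, then 9.23, 9.54 and 10.19 at 1W, next 8.19, 8.02 and 8.01 at 3W and finally 6.96, 7.30 and 7.69 at 5W. AN read 11.38, 11.68 and 11.55 at P0, then 10.54, 10.54 and 10.96 at 1W, next 9.10, 9.16 and 10.66 at 3W and finally 8.59, 10.08 and 8.67 at 5W. It thus fell at every step in EN, and AN lay above EN on all arrays of each stage. The change in EN was −1.26 (adjusted p 0.0208), −2.84 (adjusted p 6.87e-06) and −3.59 (adjusted p 3.23e-07) at 1W, 3W and 5W, and in AN −1.90 (adjusted p 0.00046) at 3W and −2.42 (adjusted p 3.63e-05) at 5W. The 1W fall in EN was not called without the first or second 1W array or the second or the third P0 array (−1.23 to −1.04, adjusted p 0.0536 to 0.1). Over the mean of the Pcdh17 probes it was −0.93 and under 2-fold. A second Pcdh17 probe was not called in EN at 1W (−0.60, adjusted p 0.133) but was called lower in AN (−1.04, adjusted p 0.0141). That probe fell in both roots at 3W and 5W.

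AN exceeded EN for Pcdh17 by 1.57 (SE 0.384, adjusted p 0.0203) at 3W and 1.80 (adjusted p 0.00706) at 5W. The 3W difference was 1.06 (adjusted p 0.11) without the third AN array, the one with the high sensory neuron markers, and 1.54 to 1.62 (adjusted p 0.0574 to 0.0739) without any 1 EN array. The second Pcdh17 probe was higher in AN at 3W (at least 1.36-fold, adjusted p 0.000199) and at 5W (at least 1.16-fold, adjusted p 0.00118), where EN was not above background on any array.

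Pcdh7 (NF-protocadherin), which acts in retinal axon growth and binds the histone chaperone Set, read 9.43, 9.84 and 9.94 in EN at P0, then 8.53, 8.69 and 9.37 at 1W, next 7.60, 7.61 and 7.78 at 3W and finally 6.79, 7.39 and 7.65 at 5W. In AN it read 9.79, 10.40 and 10.34 at P0, then 9.66, 9.47 and 10.21 at 1W, next 9.32, 9.16 and 9.76 at 3W and finally 8.67, 9.58 and 9.44 at 5W. All EN arrays at 3W and 5W lay below the P0 arrays by more than the spread of either group, while the AN arrays came closer to theirs. The change in EN was −2.07 (SE 0.288, adjusted p 8.89e-06) at 3W and −2.46 (adjusted p 9.58e-07) at 5W, against −0.77 (adjusted p 0.0326) and −0.95 (adjusted p 0.0101) in AN, both under 2-fold.

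AN exceeded EN for Pcdh7 by 1.75 (adjusted p 0.00119) at 3W and 1.96 (adjusted p 0.000336) at 5W. The growth of this difference from P0 was 1.31 (SE 0.407, adjusted p 0.211) at 3W and 1.51 (adjusted p 0.086) at 5W and was not called. With same-numbered arrays as a block it was called at 3W (SE 0.155, adjusted p 0.00384) and at 5W (adjusted p 0.00164). The pairwise differences were close to each other, 0.36, 0.56 and 0.40 at P0, 1.72, 1.55 and 1.98 at 3W and 1.88, 2.19 and 1.79 at 5W. Of 2 further Pcdh7 probes, 1 fell in AN too (−2.81 at 3W and −3.33 at 5W) and was higher in AN by 1.59 (adjusted p 0.00113) at 3W and 1.69 (adjusted p 0.000543) at 5W, and the other, dimmer one was not called between the roots.

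Without the third 5W AN array, which lay on the slide of the 3W arrays, all 5 differences between the roots at 5W were still called, being 2.80 for Pcdh10 (adjusted p 0.000137), 2.48 for Pcdh20 (adjusted p 9.92e-05), 2.02 for Pcdh17 (adjusted p 0.00596), 1.85 for Pcdh7 (adjusted p 0.00165) and 4.53 for Pcdh8 (adjusted p 9.05e-06). When only the arrays of the 2 groups compared were fitted, the same 5 differences at 5W had adjusted p of 0.0677 to 0.192. The markers of immature and non-myelinating Schwann cells (Ngfr, Ncam1, Gap43, Sox2, L1cam and Gfap) were likewise higher in AN, 4 of 6 at 3W and at 5W, with array means of 9.70 to 9.83 in EN and 11.11 to 11.91 in AN at 3W, and 9.37 to 9.80 and 10.98 to 11.37 at 5W. The part of these cells, and of sensory neurons, in the 5 genes' levels was not tested.

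**Figure D4:**
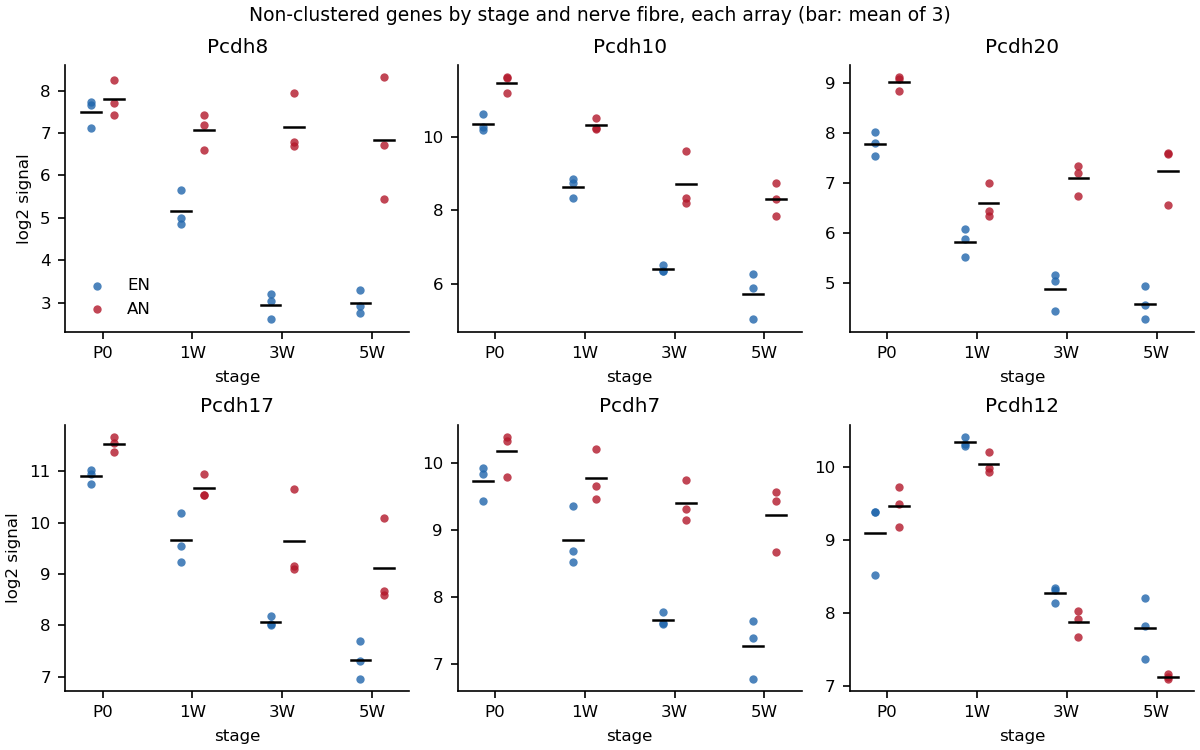
Log2 signal of 6 non-clustered protocadherins on each array by stage, with 1 point per array (n = 3 per group) and a bar at each group mean for EN and AN. For Pcdh7, Pcdh8, Pcdh10, Pcdh17 and Pcdh20 all EN points lie below all AN points at 3W and 5W, and Pcdh12 peaks at 1W in both roots.

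Pcdh12 followed a course of its own. In EN it read 9.38, 9.38 and 8.52 at P0, then 10.29, 10.42 and 10.31 at 1W, next 8.32, 8.35 and 8.14 at 3W and finally 8.20, 7.37 and 7.82 at 5W. AN read 9.49, 9.73 and 9.18 at P0, then 9.99, 10.21 and 9.93 at 1W, next 7.92, 8.02 and 7.66 at 3W and finally 7.10, 7.16 and 7.12 at 5W. The 1W arrays were the highest of each root, and in AN the 5W arrays were the lowest. In EN it rose by 1.25 (SE 0.215, adjusted p 0.000366) at 1W, which was 0.96 and under 2-fold without the third P0 array, and fell by 1.30 (adjusted p 5.32e-05) at 5W. In AN the change was −1.60 (adjusted p 6.75e-06) at 3W and −2.35 (adjusted p 4.46e-08) at 5W. With same-numbered arrays as a block, AN lost more than EN from P0 to 5W (change of the root difference −1.05, SE 0.21, adjusted p 0.02; without the block adjusted p 0.119). Of the 6 endothelial and pericyte markers, Cdh5 also fell in EN at 5W (−1.08) and in AN at 3W and 5W (−1.92 and −1.86). The pericyte markers Pdgfrb and Rgs5 rose in EN at 5W (1.11 and 1.25), and Rgs5 rose in EN at 1W too (1.29). Pecam1, Kdr and Cldn5 were called in none of these comparisons, and the list averaged 10.88 to 11.85 on every array. The part of endothelial cells in the Pcdh12 changes was not tested.

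Pcdh18, which binds the adaptor Dab1, and Pcdh19, an X-linked gene mutated in an epilepsy that affects mostly heterozygous females, fell in AN. Pcdh18 read 10.69 to 10.79 in AN at P0, then 10.11 to 10.36 at 1W, next 9.18 to 9.48 at 3W and finally 9.08 to 9.51 at 5W. Its change in AN was −1.45 (SE 0.157, adjusted p 5.36e-07) at 3W and −1.41 (adjusted p 5.44e-07) at 5W, against −0.51 and −0.42 in EN. The change of the root difference from P0 to 5W was −0.98 (SE 0.222, adjusted p 0.0358), just under the 2-fold limit. The change of Pcdh19 in EN was −1.05 (SE 0.196, adjusted p 0.000743) at 1W, from 9.48 to 9.66 down to 8.17 to 8.89, and was back at 9.05 to 9.55 at 5W (−0.31, adjusted p 0.198). In AN the change was −1.09 (adjusted p 0.000154) at 3W and −0.71 (adjusted p 0.00556) at 5W. Both Pcdh19 calls lay close to the fold limit: they were −0.86 without the first 1W EN array and −0.93 without the first 3W AN array.

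Pcdh1 and Pcdh9 were not called in any comparison. Pcdh1, an adhesion protein of airway epithelium, read 10.39 to 11.03 at P0 over both roots and 9.67 to 10.12 at 3W, a change of −0.66 (adjusted p 0.00425) in EN and −0.97 (adjusted p 0.000177) in AN. Pcdh9 read 9.77 to 9.89 in EN and 10.15 to 10.31 in AN at P0, and 9.78 to 9.88 and 10.55 to 10.75 at 5W. Its difference between the roots was 0.43 (adjusted p 0.394) at P0 and 0.81 (SE 0.161, adjusted p 0.00421) at 5W, where no EN array reached any AN array. These changes were under 2-fold.

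The slide that held all 3W arrays stood apart most clearly for Pcdhb12, which is named after its values were seen. Pcdhb12 read 5.89 to 7.31 on the 8 arrays of the slide that held all 3W arrays and 8.43 to 9.44 on the 16 arrays of the other slides, and it was the only member without overlap between that slide and the rest. The third 5W arrays, which lay on that slide, read 7.27 in EN and 5.89 in AN, while the other 5W arrays read 8.53 to 9.25. The called changes of −1.83 (adjusted p 0.00964) in EN and −2.32 (adjusted p 0.00184) in AN at 3W became 0.53 (adjusted p 0.228) and 0.03 (adjusted p 0.957) with the slide as a block.

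Pcdh15 and Pcdh11x overlapped between that slide and the rest. Pcdh15 read 7.54 to 8.65 there, against 4.83 to 8.59 on the other slides, and its rise of 2.17 (SE 0.737, adjusted p 0.0194) in AN at 3W was 0.32 (adjusted p 0.831) with the slide as a block. That rise was also not called without the first or second 3W array or the third P0 array (1.88 to 2.05, adjusted p 0.0557 to 0.0756). The probe matches a single Ensembl transcript and lies at chr10:73793730-73793789 on mm9. Of 3 other Pcdh15 probes that passed, 1 was lower in EN by at least 1.90-fold at 3W (adjusted p 0.0105) and at least 1.69-fold at 5W (adjusted p 0.00643). Another was above background on 3 arrays in all, those of AN at P0, through which alone it passed the filter, and is not compared. The mean over all Pcdh15 probes changed by −0.38 (adjusted p 0.337) in AN at 3W.

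Pcdh11x, another X-linked member, read 7.76 to 8.39 on that slide and 6.68 to 7.77 elsewhere through its brightest probe, which also matches an Ensembl transcript, and was not called in any comparison. Its second probe, to a RefSeq transcript, moved differently. That probe read 8.39 to 8.53 in EN and 8.15 to 8.83 in AN at P0, and 3.62 to 4.27 in EN and 6.32 to 7.87 in AN at 5W. EN was above background on 0 of 3 arrays at 3W and 5W, at least 12.0-fold and at least 10.69-fold below P0 (adjusted p 1.5e-06 and 3.11e-07), and AN was higher by 2.25 (adjusted p 0.0113) at 1W and by at least 3.98-fold at 3W and at least 3.78-fold at 5W. The growth of the root difference to 5W was a measured 3.00 (SE 0.688, adjusted p 0.0389). These are the values of a probe that did not represent the gene under the rule above, and they were noticed after the data were seen.

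At 1W and 5W the called members kept their direction within slides. On the slides that held both a P0 array and a later array of the same root, all 10 members called at 1W in EN and both called in AN went the same way on 2 slides, and so did all 12 called at 5W in EN and all 10 called in AN on 1 slide. These arrays are among those that gave the calls, and at 5W only 1 later array of each root was used. The agreement was therefore largely set beforehand and is no separate check on the slide. At 3W no slide held both ages, so there the block rests on the third 5W arrays. With the slide as a block, 7 of the 14 members called in EN at 3W were no longer called (Pcdha12, Pcdhac2, Pcdhb12, Pcdhb13, Pcdhb14, Pcdhb15 and Pcdhb18) and 1 was gained (Pcdha9). In AN 4 of 10 were no longer called (Pcdha8, Pcdhb12, Pcdhb15 and Pcdh15) and 2 were gained (Pcdh7 and Pcdhb17). Pcdh19 at 1W in EN and Pcdha12 at 5W in AN were also no longer called.

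**Figure D5:**
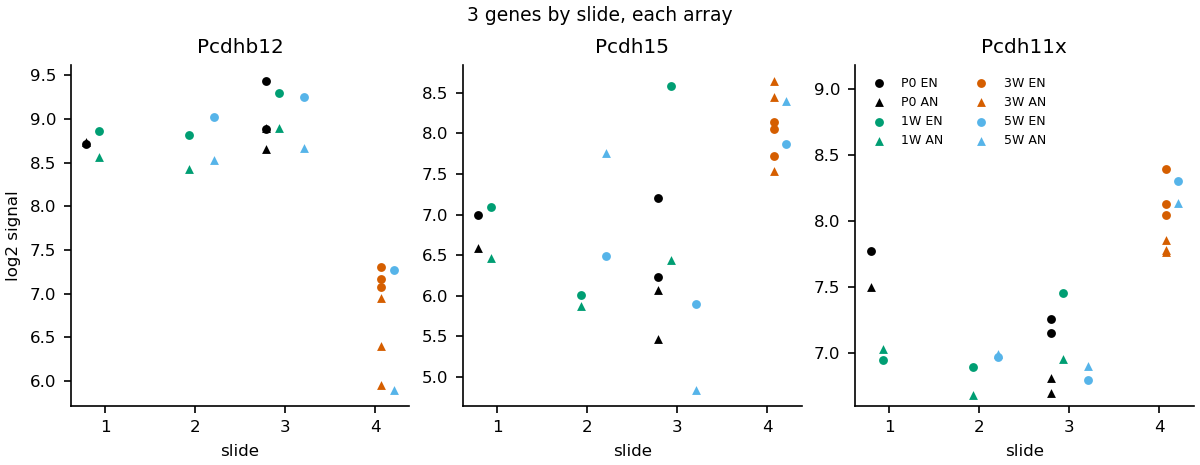
Log2 signal of Pcdhb12, Pcdh15 and Pcdh11x on each of the 24 arrays, grouped by slide and marked by stage and root. Pcdhb12 lies at 5.89 to 7.31 on the fourth slide and at 8.43 to 9.44 on the other slides.

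The genes that work with protocadherins were read through lists drawn up with earlier results known. Of 16 genes of promoter choice and chromatin at the clusters (among them the insulator protein Ctcf and the cohesin subunit Rad21), 1 rose in EN at 1W and 3W and in AN at 3W, and 1 fell in EN at 5W, against 6.25%, 16.1% and 15% of all probes called higher and 14.5% called lower in those comparisons. The riser was the DNA methyltransferase Dnmt3a (1.07, 1.16 and 1.09), and the one that fell was Dnmt3b (−1.09, adjusted p 0.00026). The median of the list stayed within −0.29 to 0.27 in all comparisons. The counts of the lists that follow stand beside the same shares of all probes, 3.62% to 16.1% called in 1 direction from P0.

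Of 14 signalling and binding partners, 1 rose and 2 fell in EN at 1W and 1 rose in AN, 3 rose and 4 fell in EN at 3W, 2 rose and 3 fell in EN at 5W, 3 rose and 1 fell in AN at 3W, and 2 rose and 2 fell in AN at 5W. Adam10, the protease that sheds clustered protocadherins, rose in both roots at each stage, by 1.93 (adjusted p 1.4e-09) in EN and 1.79 (adjusted p 3.55e-09) in AN at 5W. Dab1, the partner of Pcdh18, was at least 24.7-fold lower in EN at 3W and at least 22.0-fold lower at 5W than at P0, changed in AN by −3.04 and −3.56, and it was at least 4.22-fold and at least 2.62-fold higher in AN than in EN at those stages (adjusted p 1.11e-07 and 5.23e-07). Fyn, a kinase that binds alpha protocadherins, fell in EN at 3W (−1.37) and 5W (−1.56). Ret, which phosphorylates clustered protocadherins, fell in EN at 1W, 3W and 5W (−2.61, −2.61 and −2.59) and in AN at 5W (−2.52). Cdh2, the N-cadherin that Pcdh8 removes from the surface, was higher in AN by 1.41 at 3W and 1.09 at 5W, and Taok2 rose by 1.22 in EN and 1.43 in AN at 3W.

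Of the 9 WAVE complex genes, 2 fell in EN at 3W and 5W. They were Wasf1 (−1.11 and −1.48) and Cyfip2 (−1.67 and −1.97), and Cyfip1 rose by 1.08 in AN at 3W. By limma no WAVE gene was called between the roots. Among 11 tested genes of the other large cadherins, 1 fell in EN and 2 in AN at 1W, 5 fell and 1 rose in EN at 3W, 5 fell in EN at 5W, 4 fell and 1 rose in AN at 3W, and 6 fell and 1 rose in AN at 5W. Dchs1 and its ligand Fat4 fell in both roots, with changes of −2.84 and −2.07 in EN and −3.37 and −2.53 in AN at 5W, and Celsr1 was higher in AN by 1.32 at 3W and 1.67 at 5W. Cdh23, the tip-link partner of Pcdh15, had no passing probe. Of the 6 tip-link genes tested, 1 rose and 1 fell in EN at 1W and in AN at 1W, 2 rose and 1 fell in each root at 3W, 2 rose and 1 fell in EN at 5W, and 2 rose in AN at 5W. Myo7a rose in both roots at each stage, by 2.15 in EN and 2.22 in AN at 5W. Tmc1 rose in AN at 3W and in both roots at 5W (at least 1.32-fold in EN and at least 1.57-fold in AN), and Lhfpl5 rose in EN at 3W (1.09). Cib2 fell in EN at each stage (−1.11, −1.06 and −1.002). The gene that fell in AN was Ush1c, which passed the filter through AN at P0 alone.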

How the data were processed

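Gene expression was measured on 24 one-colour (Cy3) Agilent mouse arrays, 3 for each of 8 groups. The deposited scanner files hold intensity per spot from Agilent Feature Extraction 10.7.1.1, background-subtracted per the file headers. The main values were the log2 signals that the authors quantile-normalised in GeneSpring and deposited as 1 table, whose columns correlated with their own scanner files at 0.9955 to 0.9999. On each array 55.1% to 71.7% of spots were well above background and none was saturated, and the number of arrays limits the precision.

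A probe was tested where it was above background on all 3 arrays of a group (36409 of 56605 probes). A group-means model of all 24 arrays was fitted with limma 3.58.1 in R 4.3.3 (16 residual degrees of freedom), with Benjamini-Hochberg adjustment per comparison over all tested probes, for 13 comparisons: AN against EN at 4 stages, each later stage against P0 in each root, and the change of the root difference since P0. Where no array of a group read a gene above background, a bound against the lowest signal above background on each array is given as "at least". The fit was tested on simulated data of 36409 probes. Of 100 probes changed by 1.5 on the log2 scale, 69% were called for AN against EN at 1W and 70% for 5W against P0 in EN. For the change of the root difference at 5W, 53% were called. Of 100 changed by 3, the shares were 92%, 93% and 80% in that order. The simulated noise was independent between arrays, with 1 spread per probe and no slide or pairing effect. These rates may therefore not hold for the real arrays.

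Same-numbered AN and EN arrays of a stage shared a slide, and their deviations from the group means correlated in all 12 pairs. The correlations were 0.107 to 0.214 at 3W, where all arrays shared 1 slide, and 0.379 to 0.646 at the other stages. On this ground the numbers were taken to pair the roots within a stage. Shared mice and a shared slide cannot be told apart as the source of the pairing. The members and gene lists were chosen with earlier results of these data known. Some marker genes are not reported here and were left out of the means and counts of their lists. Members named singly were all non-clustered genes, the member of highest mean in each cluster, the largest called rise and fall per cluster from P0 to 5W in each root and per class between the roots, and every member with a called change of the root difference. Alternatives were other background correction and scaling of the scanner signals, other filters and thresholds, the mean over probes, array weights, replicate and slide blocks, fits of the compared groups alone and leaving out each array.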

Additional observations from a re-analysis of the deposited data

Results flagged for a closer look

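The difference between AN and EN in Pcdh8 changed with age, by the interaction contrast of the limma fit. From P0 to 3W it grew by 3.912 on the log2 scale (SE 0.704, adjusted p 0.0137), and from P0 to 5W by 3.555 (SE 0.704, adjusted p 0.017). AN was above EN in 3 of 3 pairs of arrays at both later stages. EN was below background on all arrays at 3W and 5W, so these sizes are measured values of a gene whose true level there is unknown. With the normexp background correction the changes were 1.25 (adjusted p 0.278) and 1.23 (adjusted p 0.217), and neither was called.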

How the results depend on the processing

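Each array was left out in turn, and the number of called protocadherins then ran from 1 to 3 for 1W against P0 in AN (2 with all arrays), 0 to 6 for AN against EN at 1W (5; 0 without the first EN array, 1 without the second and 2 without any AN array), 0 to 0 at P0 (1), 1 to 2 for the change of the root difference at 3W (1) and 0 to 3 at 5W (1). With no fold limit, 12 members passed at 1W in AN, 22 at 1W in EN, 22 at 3W in AN, 24 at 3W in EN, 21 at 5W in AN, 20 at 5W in EN and 2 for the change of the root difference at 5W. With an unadjusted p and the same fold limit the counts were 2 between the roots at P0 and 4, 4 and 7 for its change at 1W, 3W and 5W. With normexp they were 9 at 3W in EN, 3 between the roots at 1W, 2 at P0, and 0 for its change at 3W and 5W. With probes above background on all arrays they were 1 at 1W in AN, 9 at 3W in EN, 7 at 5W in EN, 3 between the roots at 1W, 0 at P0, and 0 for its change at 3W and 5W. With only the arrays compared they were 0 between the roots at 5W and at P0, 1 for its change at 1W and 0 at 5W. Array weights gave 3 for the change at 1W and 2 at 5W. The slide as a block gave 8 at 3W in EN, and 2 and 3 for the change of the root difference at 3W and 5W. The replicate number as a block gave 2 and 2 for that change, and as a block within each stage (the pairing) 2 and 4, an alternative chosen after seeing the data. At P0, 0 members were called between the roots with no filter on dim probes and with scaling to the 75th percentile. Of the single changes named, only Pcdh15 at 3W in AN reversed, at −0.381 over the mean of all its probes. With the replicate number as a block, Pcdhac2 at 5W was no longer called between the roots (adjusted p 0.0522). The block within a stage changed no other call than those given above and in the report. The cause was not tested where a count moved.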
